A study of Mus musculus with 12 samples.

Results

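Transcripts of 10 genes of the NF-κB system were measured in cultured white adipocytes with and without β-adrenergic stimulation, and with and without lipase inhibitors. The genes were found by symbol (Nfkb1, Nfkb2, Rel, Rela, Relb, Nfkbia, Nfkbie, Nfkbiz, Tnfaip3 and Bcl3) among the 20295 genes of the count table, and all 10 were present and passed the filter on low counts, which left 13543 genes. The cells were primary floated epididymal white adipocytes (eWAs) of lean male C57/BL6J mice, freed with collagenase, collected as the floating layer and held in a hydrogel for 2 days. Each of 4 groups had 3 libraries. They were DMSO, the vehicle, and ISO (isoproterenol, an agonist of all β-adrenergic receptors) for 3 h. Lip was the lipase inhibitors, and Lip+ISO was the inhibitors followed by ISO. The study's methods name the inhibitors as Atglistatin against ATGL and CAY10499 against HSL and MGL. No allele or transgene is named in the labels, and the age of the mice is not given there, nor whether animals were pooled. Comparing ISO with vehicle asks what β-adrenergic stimulation changes, and comparing Lip+ISO with ISO asks what changes when the same stimulus meets inhibited lipases.

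NF-κB is a family of dimeric transcription factors that rest in the cytoplasm, bound by inhibitors of the IκB family, and enter the nucleus when receptors such as those for TNF, IL-1 or bacterial products cause the inhibitors to be destroyed. Many of its inhibitors are themselves among its target genes, so that the pathway limits its own activity. In adipose tissue the pathway is best known from inflammation in obesity, where it drives cytokine and chemokine genes. RNA levels report on transcripts of these factors and not on their location or activity.

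The promoters of these genes are shown first because NF-κB and CREB, the factor that cAMP signalling activates, each have a known DNA motif. Windows from 250 bases before to 50 bases from the start of the counted transcript were read from the mm9 genome for all 20295 genes. The κB consensus was searched as GGG, then a purine, any 2 bases, 2 pyrimidines and CC, on both strands, so that a match on one strand often overlaps one on the other. It was found in 9 of the 10 windows and in 9.37% of the windows of all genes. Rela was the gene without a match. TGACGTCA, the palindromic cAMP response element (CRE), was found in 1 of the 10 windows, that of Relb, and in 2.53% of all windows. Its 5-base part TGACG, searched on both strands and also present within the CRE, was found in 5 of the 10 windows and in 24.9% of all. A match is a stretch of letters, not a bound site. The start of the counted transcript lay at an annotated GENCODE transcript start in 8 of the 10 genes, 7 bases from one in Rela, and 213 bases from the nearest one in Nfkbiz.

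The windows of the 5 genes on which the comparisons turn are printed 5′ to 3′ on the gene's strand, with matches to the κB consensus on either strand and to the CRE in capitals. They lie at chr16:55838705-55839004, minus strand (Nfkbiz), chr7:20408055-20408354, minus strand (Bcl3), chr3:135354462-135354761, minus strand (Nfkb1), chr19:46378977-46379276, plus strand (Nfkb2) and chr7:20214738-20215037, minus strand (Relb), all in mm9.
Nfkbiz: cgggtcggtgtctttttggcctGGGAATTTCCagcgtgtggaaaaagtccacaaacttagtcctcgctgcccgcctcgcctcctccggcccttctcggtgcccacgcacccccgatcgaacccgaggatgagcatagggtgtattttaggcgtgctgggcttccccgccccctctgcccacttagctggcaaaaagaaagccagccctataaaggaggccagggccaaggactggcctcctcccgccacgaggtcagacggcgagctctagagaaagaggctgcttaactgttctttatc
Bcl3: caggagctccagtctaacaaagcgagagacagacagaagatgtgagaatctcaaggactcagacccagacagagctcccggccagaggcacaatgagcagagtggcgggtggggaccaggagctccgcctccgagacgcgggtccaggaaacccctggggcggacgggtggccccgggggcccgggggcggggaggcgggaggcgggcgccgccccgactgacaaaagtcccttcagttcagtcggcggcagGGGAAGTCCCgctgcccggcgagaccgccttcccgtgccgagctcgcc
Nfkb1: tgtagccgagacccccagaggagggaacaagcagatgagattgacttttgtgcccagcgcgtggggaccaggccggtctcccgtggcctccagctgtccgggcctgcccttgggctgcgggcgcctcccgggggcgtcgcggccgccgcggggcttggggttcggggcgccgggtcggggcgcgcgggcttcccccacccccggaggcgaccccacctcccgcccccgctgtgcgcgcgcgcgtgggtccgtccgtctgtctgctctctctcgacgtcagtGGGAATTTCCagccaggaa
Nfkb2: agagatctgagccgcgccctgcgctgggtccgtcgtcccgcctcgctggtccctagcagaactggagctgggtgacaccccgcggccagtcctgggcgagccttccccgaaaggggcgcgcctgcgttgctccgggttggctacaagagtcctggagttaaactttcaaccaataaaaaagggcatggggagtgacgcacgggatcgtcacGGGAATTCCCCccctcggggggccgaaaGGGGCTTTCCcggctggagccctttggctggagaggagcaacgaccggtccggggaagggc
Relb: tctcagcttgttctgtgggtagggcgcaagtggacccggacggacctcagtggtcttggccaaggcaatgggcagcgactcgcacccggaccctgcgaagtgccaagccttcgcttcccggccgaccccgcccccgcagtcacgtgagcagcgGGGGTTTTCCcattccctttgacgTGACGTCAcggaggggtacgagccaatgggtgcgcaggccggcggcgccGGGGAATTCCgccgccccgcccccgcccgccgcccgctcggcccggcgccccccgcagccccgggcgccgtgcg
Positions were counted from 0 at the first transcribed base. The match in Nfkbiz, GGGAATTTCC, spanned -228 to -219 from the counted start, which itself lay 213 bases from the nearest annotated one. The match in Bcl3, GGGAAGTCCC, spanned 2 to 11 and that in Nfkb1, GGGAATTTCC, spanned 31 to 40, both within the transcript. Nfkb2 had a pair of overlapping matches from -39 to -29 and another from -11 to -2, and Relb had matches at -97 to -88 and -24 to -15 with the CRE between them at -73 to -66.

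**Figure D1:**
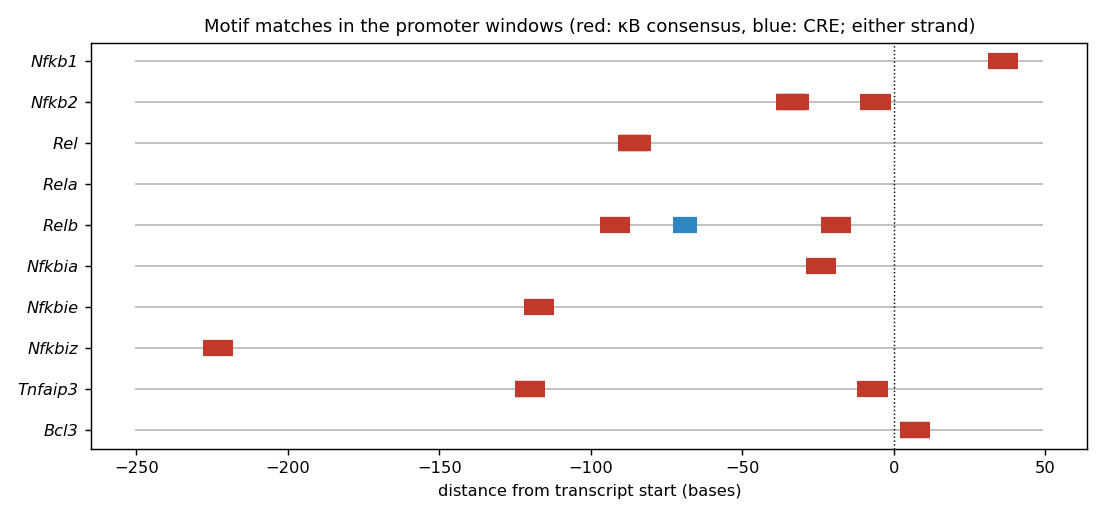
Positions of motif matches in the promoter windows of the 10 genes, in bases from the transcript start (dotted line), with the κB consensus in red and the CRE in blue, on either strand. All windows but that of Rela carry a κB match, and that of Relb alone carries a CRE.

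Library totals ran from 22632220 to 43707557 counts, and the lowest count of any of the 10 genes in any library was 37, for Bcl3. On a principal component analysis of the 500 most variable genes, Lip replicate 3 stood apart on the third component, at -23.1 against -6.35 to 9.62 for the other libraries. Adipocyte markers were abundant in all libraries, with sums of the 10 genes between 25885 and 41570 CPM (counts scaled to a common library total) and no marker at 0. Markers of other cells were present at far lower levels. The summed level of 13 macrophage markers was 64.1 to 80.4 CPM in vehicle, 127 to 181 in ISO, 71.9 to 75.6 in Lip and 88.6 to 139 in Lip+ISO. The 10 fibroblast and preadipocyte markers summed to 433 to 769, 880 to 1187, 602 to 627 and 543 to 727 CPM in the same order. For the 10 endothelial markers the sums were 111 to 211, 197 to 384, 60.5 to 190 and 83.8 to 245 CPM, and for the 7 mesothelial markers with counts they were 25.6 to 58.2, 68.1 to 78.5, 15.1 to 82.6 and 42.5 to 53.5 CPM. The 10 lymphocyte markers, of which 1 passed the filter, summed to 0.336 to 0.442, 0.384 to 0.881, 0.515 to 0.775 and 0.768 to 1.3 CPM, with Cd8a at 0 in every ISO library. In RNA from a whole culture, fewer cells of a type and less RNA per cell cannot be told apart.

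The 10 transcripts spanned a wide range of levels. Per kilobase of counted exon, Rela, which encodes the p65 subunit with a transactivation domain, and Nfkbia, which encodes the classical cytoplasmic inhibitor IκBα, were the most abundant, with means over the 12 libraries of 44.7 and 42.4 CPM per kb. Nfkb2 and Nfkb1, whose products are the precursors of the p52 and p50 subunits, followed at 20.2 and 15.2 CPM per kb. Relb, the partner of p52 in the alternative pathway, stood at 8.52. Bcl3 and Nfkbiz, which encode atypical inhibitors that act in the nucleus on p50 and p52 dimers and can activate as well as repress, came next at 3.43 and 3.2. Tnfaip3, encoding the ubiquitin-editing enzyme A20 that damps the signal, reached 2.77, Nfkbie, encoding the inhibitor IκBε, 1.57, and Rel, encoding c-Rel, which is best known from lymphoid cells, 0.944.

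The order changed between groups in the middle of this list. In vehicle, Rela (43.9 ± 6.32 CPM per kb, SD, n = 3) and Nfkbia (38.9 ± 3.25) overlapped in their libraries, and Nfkb2 (16.8 ± 1.7), Nfkb1 (11.97 ± 0.359) and Relb (9.17 ± 0.894) followed without overlap between neighbours. Below Tnfaip3 (2.78 ± 0.51), the vehicle levels of Nfkbiz, Nfkbie and Bcl3 lay between 0.875 and 1.97 CPM per kb and overlapped, with Bcl3 in place 9 of 10. In ISO, Nfkbia (48.6 ± 0.696) stood above Rela (38.3 ± 2.05) with no overlap. In Lip+ISO, Bcl3 (7.97 ± 0.995) reached place 5 and lay above Relb (6.66 ± 0.521), whose highest library reached 7.21 against a lowest Bcl3 library of 7.39. Nfkbiz (6.01 ± 0.503) overlapped with Relb in that group.

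**Figure D2:**
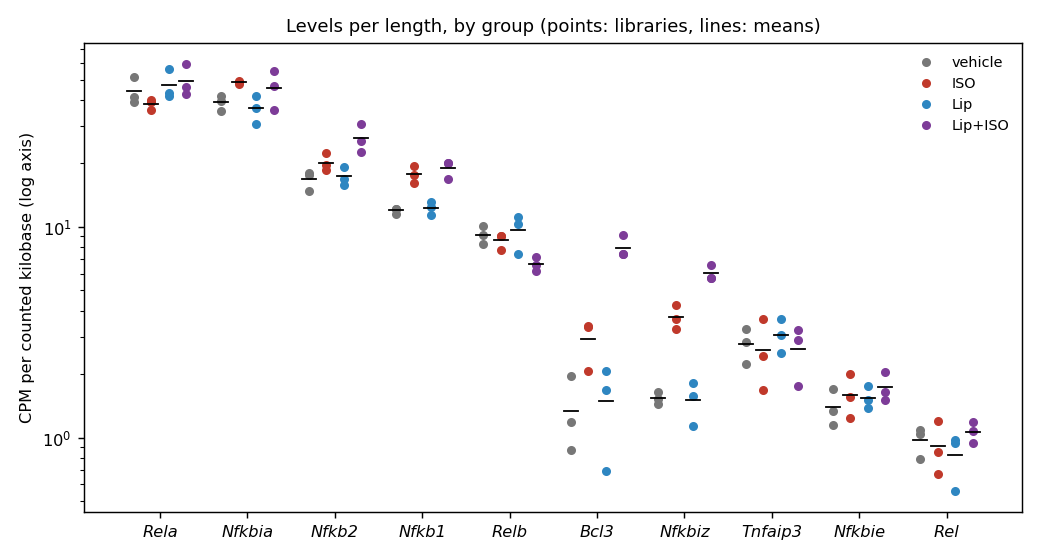
Levels of the 10 genes in CPM per counted kilobase on a log axis, ordered by their mean over all 12 libraries, with 1 point per library and a line at each group's mean. Rela and Nfkbia lie at the top in every group, and Bcl3 climbs from a mean of 1.34 in vehicle to 7.97 in Lip+ISO.

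In eWAs stimulated with ISO alone, transcripts of 3 of the 10 genes rose and none fell. The rise was largest for the atypical inhibitors Nfkbiz and Bcl3 and smaller for Nfkb1. Across all 13543 genes tested, 12.3% were called higher and 13.9% lower in this comparison at a Benjamini-Hochberg adjusted p of at most 0.05. Over the 10 genes the log2 fold changes had a median of 0.24, and over all genes one of 0.00.

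Nfkbiz, at chr16:55811490-55838754 on the minus strand, read 5.59, 6.34 and 5.87 CPM in vehicle and 12.7, 14.2 and 16.4 CPM in ISO. All ISO libraries lay above all vehicle libraries, and the level rose 2.43-fold (log2 1.28 ± 0.17, SE, edgeR adjusted p = 0.000128). Nfkb1, at chr3:135247619-135354511 on the minus strand, read 47.6, 50.2 and 50.1 CPM in vehicle and 72.5, 66.7 and 79.7 CPM in ISO. The groups were again apart, and the level rose 1.48-fold (log2 0.56 ± 0.09, edgeR adjusted p = 0.000785). Bcl3, at chr7:20393811-20408104 on the minus strand, read 2.18, 3.61 and 1.61 CPM in vehicle and 6.12, 6.2 and 3.81 CPM in ISO. Its groups came close, since the lowest ISO library barely passed the highest vehicle library, and the rise of 2.20-fold (log2 1.14 ± 0.37) had an edgeR adjusted p of 0.0382. This call rested on single libraries: the adjusted p was 0.121 without vehicle replicate 1, 0.146 without vehicle replicate 3, 0.0889 without ISO replicate 1, 0.12 without ISO replicate 2 and 0.0511 without Lip+ISO replicate 2, and 0.0527 with library totals as the scaling.

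Nfkb2 and Nfkbia also lay higher in each ISO library than in any vehicle library, by less. The share of all genes separated in this way was not worked out, so it is a description of these libraries. Nfkbia, at chr12:56590396-56593634 on the minus strand, read 56.1, 62.2 and 66.3 CPM in vehicle and 75.5, 77.6 and 77.1 CPM in ISO, a log2 difference of 0.32 ± 0.14 that was not called (edgeR adjusted p = 0.11). Nfkb2, at chr19:46379227-46386580 on the plus strand, read 45.3, 53.7 and 54.7 CPM in vehicle and 56.7, 68.2 and 59.8 CPM in ISO, a log2 difference of 0.27 ± 0.12 (adjusted p = 0.127). With the replicate number as a block, both were called (adjusted p = 0.0132 for Nfkbia and 0.021 for Nfkb2), which made 5 genes higher, in a fit that called 18.8% of all genes higher and 19.6% lower. A fit of the groups compared alone also called Nfkbia (edgeR adjusted p = 0.0176), beside 14.1% of all genes higher and 14.8% lower. Of the 15 fits that left out libraries, 14 did not call Nfkbia, the exception being that without Lip+ISO replicate 1 (0.0468). Nfkb2 overlaps Psd on the other strand, and the strand of the counting is not given in the sources used here; Psd itself stood at 3.98 to 8.49 CPM.

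The other genes of the 10 gave no call in this comparison, and their groups overlapped. The log2 differences were -0.20 ± 0.14 for Rela, -0.08 ± 0.14 for Relb, -0.11 ± 0.29 for Rel, 0.21 ± 0.23 for Nfkbie and -0.10 ± 0.28 for Tnfaip3. Their 95% intervals show how much was left undecided: -0.51 to 0.12 for Rela, but -0.70 to 0.51 for Tnfaip3, whose ISO libraries spread from 7.44 to 16.2 CPM. Macrophage markers moved with the rise in the ISO group, where 7 of the 13 were called higher, as did 5 of the 10 fibroblast and preadipocyte markers. The endothelial marker Flt1 and the mesothelial marker Wt1 were called higher too, with list medians of 0.94 and 1.05 on the log2 scale, and the adipocyte markers Lep and Pparg were called lower. Their part in the higher levels of Nfkbiz, Nfkb1 and Bcl3 was not tested.

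**Figure D3:**
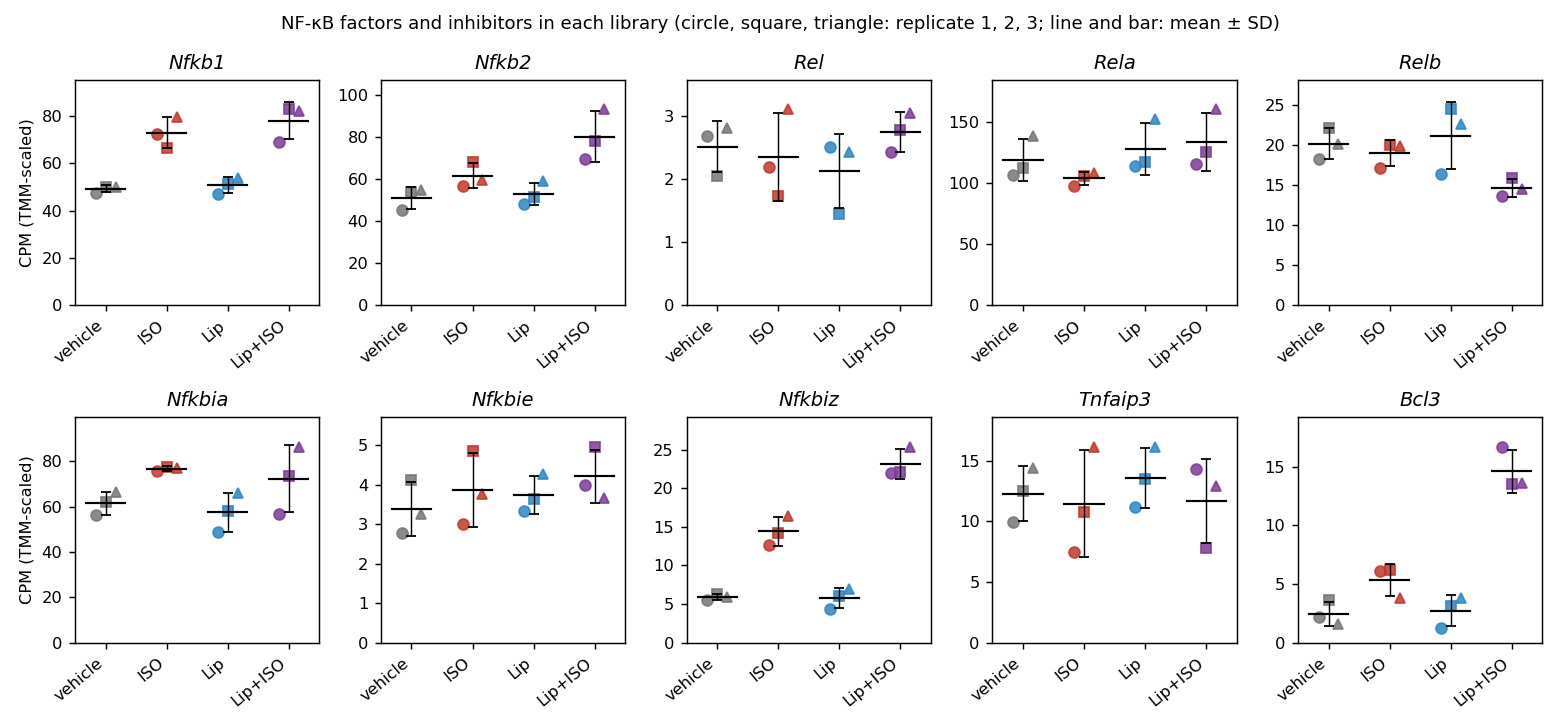
CPM of each gene in each library, 1 panel per gene with its own linear axis from 0, with a circle, square and triangle for replicates 1, 2 and 3 and a line and bar for the mean ± SD. Nfkbiz and Bcl3 are highest in the 3 Lip+ISO libraries, and Relb is lowest there.

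The lipase inhibitors alone left the 10 transcripts where vehicle had them, within the spread of the libraries. No gene of the 10 was called higher or lower in Lip against vehicle by edgeR's quasi-likelihood test, none had an unadjusted p under 0.05 (582 of all genes did), and DESeq2 likewise called none. The background was 0.00738% of all genes called higher and 0.0443% lower. The log2 differences ran from -0.24 ± 0.29 for Rel to 0.16 ± 0.37 for Bcl3, and the Lip and vehicle libraries overlapped for each of the 10. Nfkbiz read 4.4, 6.05 and 7.00 CPM in Lip, and its 95% interval of the log2 difference was -0.39 to 0.34. For Bcl3, at 1.27, 3.09 and 3.82 CPM in Lip, the interval was wider, from -0.65 to 0.97. The narrowest interval, -0.16 to 0.24, belonged to Nfkb1, which read 47.1, 51.4 and 53.9 CPM in Lip.

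With the lipases inhibited, ISO raised 4 of the 10 transcripts and lowered 1. Bcl3 and Nfkbiz rose most, Nfkb1 and Nfkb2 rose by 1.54-fold and 1.51-fold, and Relb fell. Of all genes, 11.5% were called higher and 15.8% lower in Lip+ISO against Lip. Over the 10 genes the log2 fold changes had a median of 0.35, and over all genes one of 0.00, which scaling by library totals moved to -0.12.

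Bcl3 read 16.7, 13.6 and 13.6 CPM in Lip+ISO, several times the highest Lip library at 3.82 CPM. The rise was 5.32-fold (log2 2.41 ± 0.37, edgeR adjusted p = 0.000285). Nfkbiz read 22.0, 22.1 and 25.4 CPM in Lip+ISO, and no Lip library exceeded 7.00 CPM. It rose 3.97-fold (log2 1.99 ± 0.17, edgeR adjusted p = 1.85e-06), the smallest adjusted p among the 10 genes in this comparison. Both genes kept their call in each of the 15 fits that left out a library or a replicate number.

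Nfkb1 and Nfkb2 each lay clear of Lip in all 3 Lip+ISO libraries. Nfkb1 read 69.1, 82.9 and 82.3 CPM, a rise of 0.62 ± 0.09 on the log2 scale (edgeR adjusted p = 0.000249). Nfkb2 read 48.4, 51.6 and 58.9 CPM in Lip and 69.4, 78.1 and 93.3 CPM in Lip+ISO, a rise of 0.60 ± 0.12 (adjusted p = 0.00258). Relb, at chr7:20191571-20214787 on the minus strand, read 16.4, 24.5 and 22.6 CPM in Lip and 13.6, 15.9 and 14.5 CPM in Lip+ISO. Its groups did not overlap, although Lip replicate 1 lay close to the Lip+ISO libraries. Relb fell by 0.53 ± 0.14 on the log2 scale (edgeR adjusted p = 0.0148), a call that was lost without Lip replicate 2 (0.0655) and without Lip replicate 3 (0.0516), the library that stood apart on the third component.

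Nfkbia read 48.8, 57.9 and 66.0 CPM in Lip and 56.8, 73.5 and 86.5 CPM in Lip+ISO, which overlapped. The log2 difference of 0.33 ± 0.14 was not called (edgeR adjusted p = 0.107). Within each replicate number the Lip+ISO library was the higher of the pair, and with the block Nfkbia was called (adjusted p = 0.0145), making 5 genes higher, in a fit that called 15.5% of all genes higher and 20.1% lower. Without Lip+ISO replicate 1 it was also called, at an adjusted p of 0.0128. Rela, Rel, Nfkbie and Tnfaip3 overlapped between the groups, with log2 differences of 0.07 ± 0.14, 0.37 ± 0.29, 0.17 ± 0.23 and -0.22 ± 0.28. In this comparison 4 of the 13 macrophage markers were called higher and none of the 10 fibroblast and preadipocyte markers were called. The adipocyte markers Lep, Lipe and Plin4 were called lower, as was the mesothelial marker Krt7, and the mesothelial marker Wt1 was called higher. No endothelial marker was called. The part of these markers in the changes of the 10 genes was not tested.

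Set directly against ISO, Lip+ISO had more transcript of both atypical nuclear inhibitors. Bcl3 and Nfkbiz were the 2 genes of the 10 called higher, and none was called lower, where 4.36% of all genes were called higher and 4.59% lower. The lowest Lip+ISO library of Bcl3, 13.6 CPM, was above the highest ISO library of 6.2 CPM, and the level was 2.71-fold higher (log2 1.44 ± 0.35, edgeR adjusted p = 0.0231). For Nfkbiz the lowest Lip+ISO library, 22.0 CPM, was above the highest ISO library of 16.4 CPM, and the level was 1.61-fold higher (log2 0.68 ± 0.16, edgeR adjusted p = 0.0173). None of the 13 macrophage markers was called here, and their sum was 88.6 to 139 CPM in Lip+ISO against 127 to 181 CPM in ISO. Fibroblast and preadipocyte markers were lower in Lip+ISO, with 4 of the 10 called. Of the adipocyte markers, Pparg was called higher and Lipe lower.

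Both calls depended on single libraries although the direction held in every fit. For Bcl3 the adjusted p was 0.0595 without ISO replicate 2, 0.0991 without ISO replicate 3 and 0.0573 without Lip+ISO replicate 1. For Nfkbiz it was 0.0603 without ISO replicate 1, 0.0675 without ISO replicate 2 and 0.0645 without Lip+ISO replicate 3. Without ISO replicate 2, then, neither gene was called.

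Nfkb2, Rela and Relb were not called in the unblocked fit, although their libraries did not overlap between ISO and Lip+ISO. How many of all genes were separated in this way was not worked out, so the separation is a description only. Nfkb2 was higher by 0.38 ± 0.12 on the log2 scale (edgeR adjusted p = 0.0744). DESeq2 called it (adjusted p = 0.0283), as did edgeR without Lip+ISO replicate 1 (0.0326). Rela, at chr19:5637490-5648130 on the plus strand, read 97.6, 106 and 108 CPM in ISO and 116, 125 and 160 CPM in Lip+ISO, a log2 difference of 0.37 ± 0.14 (adjusted p = 0.144). Relb read 17.1, 19.99 and 19.8 CPM in ISO, and its log2 difference was -0.38 ± 0.14 (adjusted p = 0.135). With the replicate number as a block, Nfkb2 and Rela were called higher (edgeR adjusted p = 0.00767 and 0.00592) and Relb lower (0.0173). That fit called 8.48% of all genes higher and 10.8% lower. Nfkb1, which rose under ISO with and without the inhibitors, differed by 0.10 ± 0.09 between these groups, with a 95% interval of -0.10 to 0.30.

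The response to ISO with the inhibitors can also be set against the response without them in 1 term, the interaction. No gene of the 10 was called for it in the unblocked fit, where 0.901% of all genes were called higher and 0.724% lower. Of the 10, 3 had an unadjusted p under 0.05 (1868 of all genes did), and DESeq2 called none of the 10 either. Those 3 were Nfkbiz, Bcl3 and Relb. The response of Nfkbiz was larger with the inhibitors by 0.71 ± 0.23 on the log2 scale (95% interval 0.21 to 1.21, edgeR adjusted p = 0.174). That of Bcl3 was larger by 1.28 ± 0.51 (0.17 to 2.39, adjusted p = 0.288), and that of Relb differed by -0.45 ± 0.20 (adjusted p = 0.354). For Nfkb1 the difference between the responses was 0.06 ± 0.13, with an interval of -0.23 to 0.34. With the replicate number as a block, the interaction of Nfkbiz was called (0.73, edgeR adjusted p = 0.0295). That fit called 3.15% of all genes higher and 3.48% lower for the interaction. Comparisons in this study share groups, so that a high or low ISO library enters both ISO against vehicle and Lip+ISO against ISO.

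**Figure D4:**
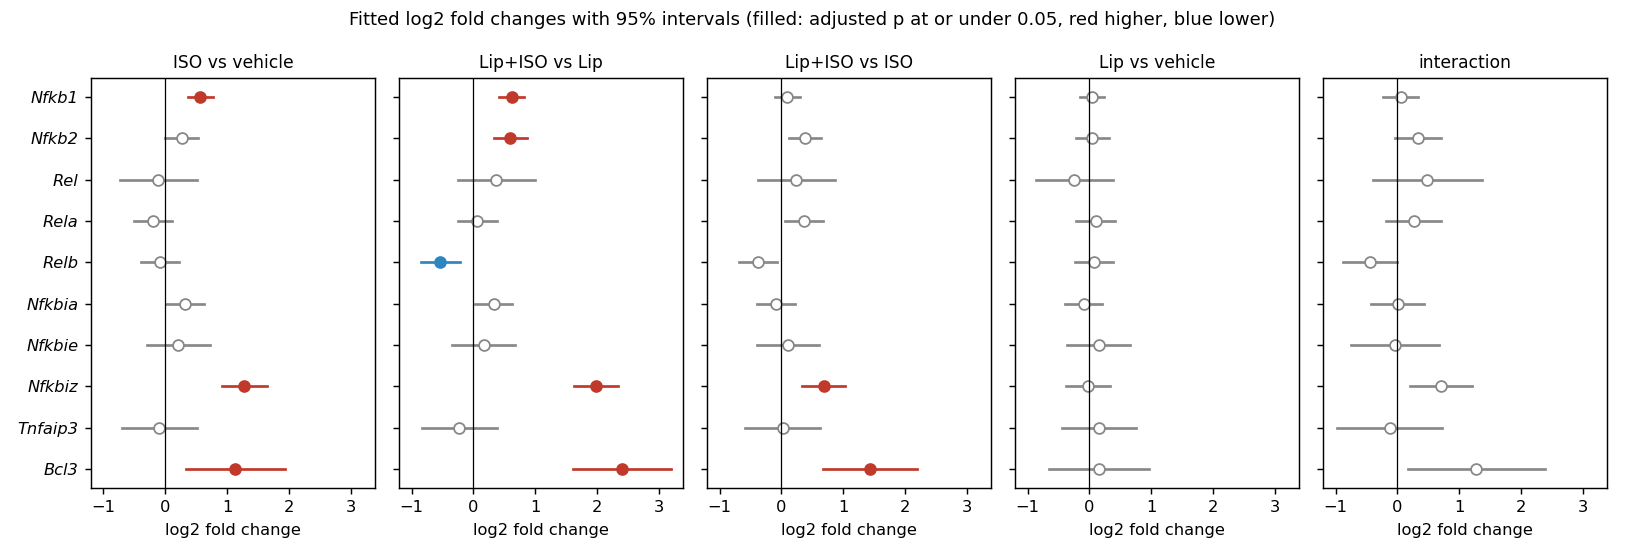
Fitted log2 fold changes of the 10 genes in the 4 comparisons and the interaction, with 95% intervals, filled in red where called higher and in blue where called lower. Bcl3 and Nfkbiz are filled in the 3 comparisons that contain ISO on one side or both, and no gene is filled in Lip against vehicle or in the interaction.

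Tnfaip3, Nfkbie and Rel were called in none of the comparisons, and their libraries overlapped in each. Tnfaip3, at chr10:18720717-18735216 on the minus strand, ranged from 7.44 to 16.2 CPM, with both extremes in the ISO group. Nfkbie, at chr17:45692665-45700117 on the plus strand, ranged from 2.78 to 4.97 CPM. Rel, at chr11:23641729-23670970 on the minus strand, ranged from 1.45 to 3.11 CPM.

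Of 25 receptors and adaptors that lead to NF-κB, all tested, 5 were called higher and 3 lower in ISO against vehicle, beside 12.3% and 13.9% of all genes, with a median log2 fold change of 0.09. These counts are near the shares of all genes, so the values of single genes are described and not a change of the list. Tnfrsf1b, the second TNF receptor, rose from 58.7 ± 2.57 to 170 ± 6.42 CPM (log2 1.53 ± 0.09), and Il1r1, the signalling receptor of IL-1, from 47.2 ± 7.76 to 91.3 ± 15.8 CPM (log2 0.95 ± 0.16). Tlr4, the receptor for lipopolysaccharide, fell from 82.9 ± 3.33 to 49.5 ± 2.56 CPM. Its adaptor Tirap fell by 0.80 ± 0.11 and Traf3, which restrains the alternative pathway, by 0.60 ± 0.12 on the log2 scale. Tnfrsf12a, the receptor of TWEAK, was called at 0.44 ± 0.13, and it overlaps Hcfc1r1. That call was lost without any 1 of the vehicle libraries or ISO replicates 1 or 2 (adjusted p = 0.0588 to 0.0805).

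With the inhibitors present, 5 of the 25 were called higher and 3 lower in Lip+ISO against Lip, again near the 11.5% and 15.8% of all genes. Tnfrsf1b rose from 78.8 ± 5.03 to 346 ± 40.2 CPM, and Irak3, a kinase-dead relative of the IRAK kinases that damps Toll-like receptor signalling, from 10.6 ± 1.22 to 28.3 ± 8.82 CPM. The Toll-like receptor adaptor Ticam1 was called higher at 0.56 ± 0.17, and Tlr3 was called lower at -0.71 ± 0.20, with Tirap and Traf3 again lower. Tlr4 read 94.0 ± 4.86 CPM in Lip and 105 ± 6.49 CPM in Lip+ISO. Against ISO, Lip+ISO had 3 genes higher, Irak3, Tlr4 and Tnfrsf1b (log2 1.25 ± 0.20, 1.09 ± 0.08 and 1.03 ± 0.09), and 2 lower, Tnfrsf12a and Irak2 (-0.57 ± 0.13 and -0.37 ± 0.11). Of all genes, 4.36% were called higher and 4.59% lower there. The interaction was called for Tlr4 (0.90 ± 0.11, edgeR adjusted p = 0.00116) and for Tnfrsf1b (0.60 ± 0.12, adjusted p = 0.0304), beside 0.901% of all genes higher and 0.724% lower. None of the 25 was called in Lip against vehicle. Single libraries decided several of these calls. That of Ticam1 was lost without Lip replicate 1 (adjusted p = 0.0974), Lip replicate 2 (0.0893) or Lip+ISO replicate 3 (0.108). Tlr3 lost its call without Lip replicate 2 (0.0539), Lip replicate 3 (0.061) or Lip+ISO replicate 3 (0.0601), and Traf3 without Lip+ISO replicate 2 (0.0558). Between Lip+ISO and ISO, Tnfrsf12a lost its call without ISO replicate 1 (0.051) or 2 (0.0553) or Lip+ISO replicate 2 (0.0685) or 3 (0.066), and Irak2 without any library other than ISO replicate 2 (0.0519 to 0.148). The interaction of Tnfrsf1b was lost without any 1 of the vehicle libraries, ISO replicates 2 or 3 and Lip replicates 1 or 2 (0.0635 to 0.0943).

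Of 30 kinases and regulators of the pathway, 4 were called higher and 6 lower in ISO against vehicle, beside 12.3% and 13.9% of all genes. In Lip+ISO against Lip 3 were higher and 7 lower, beside 11.5% and 15.8%, and in Lip+ISO against ISO 2 were higher and 4 lower, beside 4.36% and 4.59%. None was called in Lip against vehicle. Most of these counts are near the shares of all genes. The medians of the log2 fold change were -0.03, -0.10, 0.01 and -0.03 in ISO against vehicle, Lip+ISO against Lip, Lip+ISO against ISO and Lip against vehicle. Map3k8, the kinase TPL2 that is held by the Nfkb1 precursor protein, rose under ISO from 7.44 ± 0.574 to 21.2 ± 2.87 CPM. With the inhibitors it read 7.38 ± 1.54 CPM without ISO and 4.29 ± 1.13 CPM with ISO, a difference of -0.78 ± 0.21 on the log2 scale, and the interaction was -2.29 ± 0.29 (edgeR adjusted p = 0.0019). Peli1, a ubiquitin ligase of the Toll-like receptor pathway, rose under ISO by 0.51 ± 0.10 without and 1.23 ± 0.10 with the inhibitors, and its interaction of 0.72 ± 0.13 was called (adjusted p = 0.0181). The interaction of Peli1 was no longer called without vehicle replicate 1 (0.0585), vehicle replicate 3 (0.0502), ISO replicate 2 (0.0586) or ISO replicate 3 (0.0519), nor the lower Map3k8 in Lip+ISO against Lip without Lip replicate 2 (0.0584).

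Zc3h12a, an RNase that degrades cytokine mRNAs, rose under ISO by 0.84 ± 0.17 without and 0.94 ± 0.17 with the inhibitors. Of the A20-binding proteins, Tnip2 fell by 0.92 ± 0.18 in both comparisons, and Tnip1 fell by 0.68 ± 0.09 without and 0.65 ± 0.09 with the inhibitors, whereas Tnip3 was not called (log2 0.22 and 0.12). Birc2, a ubiquitin ligase of the TNF receptor complex, fell by 0.76 ± 0.11 under ISO and was higher by 0.54 ± 0.11 in Lip+ISO than in ISO. Its relative Birc3 was called lower in Lip+ISO against Lip (-0.85 ± 0.25) and the A20 cofactor Tax1bp1 higher (0.27 ± 0.09). Against ISO, Lip+ISO had less Chuk, which encodes the kinase IKKα, and less Tank (-0.44 ± 0.10 and -0.43 ± 0.08). The calls of Birc3 were lost without Lip replicate 2 (adjusted p = 0.101), Lip replicate 3 (0.0542), Lip+ISO replicate 1 (0.0701) or Lip+ISO replicate 3 (0.0942), and those of Tax1bp1 without vehicle replicate 2, Lip replicates 2 and 3 or Lip+ISO replicates 1 and 2 (0.0525 to 0.15). Chuk lost its call without ISO replicate 3 (0.0528), Lip+ISO replicate 2 (0.0605) or Lip+ISO replicate 3 (0.0649).

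Known NF-κB target genes rose and fell under ISO. The list holds 32 genes, of which 25 were tested, and the 7 that failed the filter were Tnf, Il1b, Ccl20, Csf2, Csf3, Bcl2a1a and Nos2, none above 14 counts in any library. In ISO against vehicle 10 of the 25 were called higher, beside 12.3% of all genes, and 4 lower, beside 13.9%, with a median of 0.58. The list was chosen with earlier results of these data known, so no change of the list is read from these counts. In Lip+ISO against Lip, 5 were called higher and 5 lower, beside 11.5% and 15.8%, with a median of 0.19. In Lip+ISO against ISO 1 was called in each direction, beside 4.36% and 4.59% of all genes. None was called in Lip against vehicle or for the interaction.

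Tnfaip6, which encodes a secreted hyaluronan-binding protein, rose from 4.53 ± 1.04 CPM in vehicle to 381 ± 66.3 CPM in ISO (log2 6.40 ± 0.23) and from 5.85 ± 0.853 in Lip to 503 ± 111 CPM in Lip+ISO. Ier3, an immediate early gene, rose from 32.6 ± 3.99 to 211 ± 27.4 CPM and from 40.4 ± 7.62 to 212 ± 46.6 CPM. Il6, the cytokine, rose from 1.1 ± 0.504 to 6.6 ± 1.12 CPM and from 1.63 ± 0.21 to 9.54 ± 0.277 CPM. These genes are also known to respond to other signals, cAMP among them for Il6, and which factor acted on them was not measured.

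Cxcl10, a chemokine, and Irf1, a transcription factor, both also interferon-responsive, fell under ISO. Cxcl10, which overlaps Art3, fell by 1.42 ± 0.26 on the log2 scale without and by 1.31 ± 0.27 with the inhibitors. Irf1 fell by 1.28 ± 0.35 and by 1.71 ± 0.36. Csf1, the macrophage growth factor, fell from 847 ± 8.09 to 494 ± 7.18 CPM and from 1071 ± 68.7 to 451 ± 36.3 CPM. Against ISO, Gadd45b, a stress-response gene, was higher in Lip+ISO (0.84 ± 0.18) and Lif, a cytokine of the IL-6 family, was lower (-0.93 ± 0.27). The call of Gadd45b was lost without ISO replicate 2 (adjusted p = 0.0512), that of Lif without any library other than ISO replicate 1, Lip replicate 2 and Lip+ISO replicate 1 (0.0554 to 0.189), and that of Irf1 in ISO against vehicle without vehicle replicate 3 (0.0542) or ISO replicate 1 (0.0576).

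**Figure D5:**
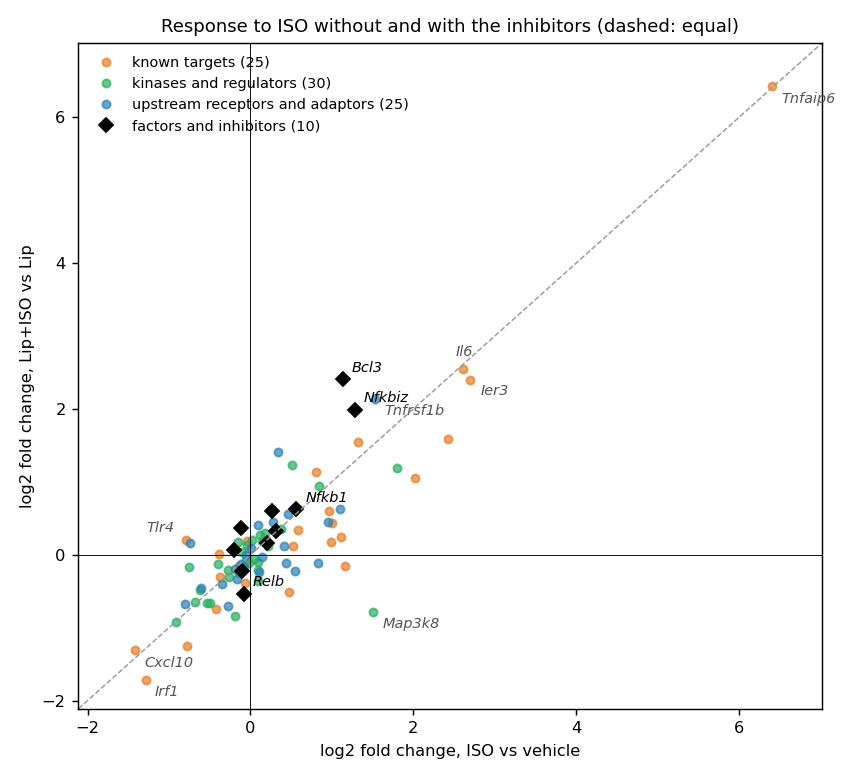
Log2 fold change of each gene in Lip+ISO against Lip (y axis) and in ISO against vehicle (x axis), for the 10 genes as black diamonds and for 80 further pathway genes as coloured points, with a dashed line where both are equal. Bcl3 and Nfkbiz lie above the line, Map3k8 far below it, and Tnfaip6 at the upper right near it.

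Among themselves the 10 genes fell into profiles of different shape. Likeness was taken as the root-mean-square difference of log2 CPM over the 12 libraries, each gene centred on its own mean, and it is a description of libraries that share 4 treatments. Of all pairs among the 10, Nfkb1 and Nfkb2 were the most alike, at 0.178, followed by Nfkb1 and Nfkbia at 0.195. Bcl3 was nearer to Nfkbiz, at 0.484, than to any other of the 10, the next being Nfkb1 at 0.906. Outside the 10, the profiles most like Nfkbiz were those of Zfp948, Acsl4 and Srrd (0.158, 0.186 and 0.194), and those most like Bcl3 were Abt1, Pax9 and Eva1c (0.425, 0.432 and 0.448). Nearest to Nfkb1 were Nfya, Gltscr2 and Man2a1 (0.1 to 0.103), to Nfkb2 Tollip, Neu1 and Fastkd5 (0.0951 to 0.0989), and to Relb Rnf138, Kri1 and Rilpl1 (0.106 to 0.119).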

How the data were processed

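RNA of 12 eWA cultures, 3 for each of 4 groups, was sequenced from TruSeq2 libraries; groups and replicate numbers came from the sample titles. The study describes 3 independent experiments. Its figure legend for white adipocytes names SR-3420 as the stimulus, whereas its text and the titles name ISO. The authors deposited raw read counts per RefSeq gene with genome positions and counted lengths: reads were aligned to mm9 with STAR 2.4.2a, HOMER kept 1 read per position and length, and iRNA-seq counted them, which can cap the counts of abundant transcripts. The deposited counted exon length (other unit: bases) served for CPM per kb.

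Counts were analysed in R 4.3.3 with edgeR 4.0.16 (limma 3.58.1): filterByExpr kept 13543 of 20295 genes, TMM factors were 0.924 to 1.07, and the quasi-likelihood test was fitted on all 12 libraries with 1 mean per group. Benjamini-Hochberg adjustment ran over all genes tested, and calls needed an adjusted p of at most 0.05. CPM are TMM-scaled. Standard errors are the log2 fold change divided by the square root of F. P-values cover the spread between these libraries. The scripts were tested on simulated counts. DESeq2 1.42.0, other scalings, no filter, a replicate block, fits without libraries and a call at a log2 fold change of at least 1 were alternatives. Same-numbered libraries deviated together in every pair for ISO against vehicle (r 0.139 to 0.331), Lip against vehicle (0.197 to 0.369) and Lip+ISO against Lip (0.192 to 0.298). For Lip+ISO against ISO r was 0.0373 to 0.311. Values of the 10 genes from the replicate block are given beside the unblocked main ones where they change a call.

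All 10 members are named in every comparison. Of each pathway list, the 3 genes with the largest called change in each direction per comparison are named, and for likeness the 3 nearest genes. Members and lists were chosen with earlier results of these data known. Promoters were read from the mm9 genome at the starts of the deposited gene positions.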

Additional observations from a re-analysis of the deposited data

Results flagged for a closer look

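The response to ISO differed with and without the lipase inhibitors for 4 pathway genes by a test of the interaction term in edgeR. Tlr4 and Tnfrsf1b were called among 25 receptors and adaptors, and Peli1 and Map3k8 among 30 kinases and regulators. None of the 25 known targets tested and none of the 10 genes was called in the unblocked fit. The lists were chosen with earlier results of these data known. Of all genes, 0.901% were called higher and 0.724% lower for this term. Tlr4 had a difference between the responses of 0.90 on the log2 scale, with ISO alone lowering it (-0.74) and no call for ISO given with the inhibitors. Tnfrsf1b had a difference of 0.60 and Peli1 of 0.72, both raised by ISO in either setting and more so with the inhibitors. Map3k8 had a difference of -2.29, raised by ISO alone (1.51) and lower under ISO given with the inhibitors (-0.78). The call for Tlr4 was lost without replicate 2 of every group (adjusted p = 0.0759), and that for Map3k8 without replicate 2 (0.0682) and without replicate 3 (0.0772). Those for Tnfrsf1b and Peli1 were lost in 10 and 7 of the 15 fits that left out libraries, for Peli1 without vehicle replicate 1, vehicle replicate 3, ISO replicate 2 or ISO replicate 3 alone, and for Tnfrsf1b without any 1 of the vehicle libraries, ISO replicates 2 and 3, and Lip replicates 1 and 2. No cause of these differences was tested.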

How the results depend on the processing

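The rises of Nfkb1 and Nfkbiz under ISO, with and without the inhibitors, and of Nfkb2 and Bcl3 with the inhibitors were called under every alternative tried except a call rule that asked for a log2 fold change of at least 1, which Nfkb1 and Nfkb2 miss by construction. With that rule, 2 genes were higher and 0 lower in Lip+ISO against Lip, and 1 was higher in Lip+ISO against ISO. The replicate block gave 5 higher in ISO against vehicle. For Lip+ISO against ISO and the interaction, r between same-numbered libraries ranged from 0.0373 to 0.311 and from 0.0373 to 0.369. Even so, each of the 12 libraries correlated best with a library of its own number in another group. The block gave 4 genes higher and 1 lower in Lip+ISO against ISO, adding Nfkb2 (edgeR adjusted p = 0.00767), Rela (0.00592) and Relb (0.0173). In the interaction it gave 1 higher, Nfkbiz (0.73, adjusted p = 0.0295). It also called more of all genes, 8.48% higher and 10.8% lower in Lip+ISO against ISO and 3.15% and 3.48% in the interaction. The block added Nfkbia in Lip+ISO against Lip and changed no other call of the 10 genes. Without 1 library or replicate number, the count was 2 to 4 higher in ISO against vehicle and 4 to 5 higher in Lip+ISO against Lip. It was 0 to 1 lower in Lip+ISO against Lip and 0 to 2 higher in Lip+ISO against ISO. The latter was 0 without ISO replicate 2, without replicate 2 of every group and without replicate 3 of every group, and 1 without ISO replicate 1, ISO replicate 3, Lip+ISO replicate 3 or replicate 1 of every group. Over all comparisons and such fits, 23 values of the 10 genes lost and 4 gained a call. Of the other pathway genes named, Ticam1 and Tax1bp1 lost their call in Lip+ISO against Lip with library totals (adjusted p = 0.0701 and 0.165) and in a fit of the groups compared alone (0.0855 and 0.0782), Tax1bp1 also with no filter (0.0761). In a fit of the groups compared alone, so did Map3k8 in Lip+ISO against Lip (0.0659) and Tnfrsf12a, Irak2, Chuk and Lif in Lip+ISO against ISO (0.0778, 0.111, 0.0806 and 0.0898), Irak2 and Lif also with DESeq2 size factors (0.0655 and 0.0537).

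Directions turned only for genes that were not called in the comparison concerned. With library totals as the scaling, log2 differences became 0.01 for Nfkbiz in Lip against vehicle, -0.05 for Rela in Lip+ISO against Lip, -0.03 for Tnfaip3 in Lip+ISO against ISO, and -0.02 for Nfkb1 and -0.07 for Nfkbia in the interaction; the block made the last 0.00. Without single libraries or replicate numbers they ranged, in ISO against vehicle, from -0.36 to 0.07 for Rel and -0.42 to 0.13 for Tnfaip3. In Lip against vehicle the ranges were -0.39 to 0.52 for Bcl3, -0.01 to 0.08 for Nfkb1, -0.04 to 0.10 for Nfkb2, -0.21 to 0.00 for Nfkbia, -0.19 to 0.13 for Nfkbiz, -0.05 to 0.22 for Rela and -0.04 to 0.21 for Relb. In Lip+ISO against ISO they were -0.01 to 0.19 for Nfkb1, -0.23 to 0.06 for Nfkbia, -0.04 to 0.32 for Nfkbie and -0.37 to 0.34 for Tnfaip3. In Lip+ISO against Lip they were -0.07 to 0.21 for Rela and -0.51 to 0.01 for Tnfaip3. In the interaction they were -0.05 to 0.14 for Nfkb1, -0.12 to 0.15 for Nfkbia, -0.20 to 0.16 for Nfkbie and -0.50 to 0.19 for Tnfaip3. Library totals also moved the share of higher among all calls from 47.1% to 37.0% in ISO against vehicle and from 42.2% to 26.5% in Lip+ISO against Lip. The causes were not tested. Counts of 37 to 414 for Bcl3 and the 3 libraries per group limit the precision.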
